A study of Rattus norvegicus with 6 samples.

Results

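Axl, Erbb2, Pdgfra, Kdr and Tie1 encode receptor tyrosine kinases, and they were taken as every spot of the array whose platform annotation gives 1 of these 5 symbols. That rule found 14 spots, or 7 clones, among 16128 spots and 8064 clones. Axl, Kdr and Tie1 had 1 clone each and Erbb2 and Pdgfra had 2, and each clone was printed as 2 adjacent spots. The cells were JA, JB and Amy, 3 cell lines of rat esophageal tumors that reflux, the return of stomach contents into the esophagus, had induced. No treatment, passage or clonal origin is given for them. The control was Normal(pooled), 1 RNA mixture in equal parts of the lines Normal1 and Normal2, cell lines from normal rat esophagus. Total RNA of each line was hybridized together with that pool to 2 arrays of complementary DNA, once with the line in the dye Cy3 and the pool in Cy5, and once with the dyes exchanged.

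A receptor tyrosine kinase spans the plasma membrane, binds a growth factor outside the cell and phosphorylates tyrosines inside it, which recruits adaptor proteins and starts the RAS to MAP kinase and the PI3 kinase to AKT cascades. Axl belongs to the TAM family with Tyro3 and Mertk and is activated by Gas6, while protein S (Pros1) is a ligand of its relatives. Erbb2 is the ERBB receptor without a known ligand of its own, pairs with Egfr or Erbb3, and is a known amplified oncogene of esophageal and gastric adenocarcinoma. Pdgfra binds platelet-derived growth factors and is a marker of mesenchymal cells. Kdr is the main receptor for vascular endothelial growth factor, and Tie1 is an endothelial partner of the angiopoietin receptor Tek.

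The values were log2 ratios of a tumor line to the normal pool, so 1 unit is a doubling and a negative value means less RNA in the tumor line. That direction is likely rather than settled, since it rests on the order of names in the sample titles, and with the opposite direction every higher value here would be a lower one. Base 2 of the logarithm is an assumption, as the base is not stated. A ratio gives no level, so these genes cannot be ranked by how strongly they were expressed, and no spot intensities were used to show whether a channel was dim. Fewer cells of a type and less RNA per cell cannot be told apart in such RNA. Over all clones the adjacent spots of a clone had correlations of 0.907 to 0.949, and array medians lay between -0.15 and -0.05. The 2 arrays of a line share their RNA extracts, so a line was 1 replicate. The 5 genes were selected on their log2 ratios to the pool in earlier results of these data, so these ratios are described without a test.

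Pdgfra and Kdr are neighbors on rat chromosome 14, with only the receptor tyrosine kinase gene Kit between them in the RefSeq annotation of assembly GRCr8; Kit was not among the named genes measured. Because Pdgfra, Kdr and Tie1 were lower in every line while Axl was not, the 250 bases before their annotated start sites are shown from RefSeq (GRCr8), 5′ to 3′ on the gene's strand. Capitals mark the GC box GGGCGG on either strand.
Axl, chr1:90424010-90424259 (- strand): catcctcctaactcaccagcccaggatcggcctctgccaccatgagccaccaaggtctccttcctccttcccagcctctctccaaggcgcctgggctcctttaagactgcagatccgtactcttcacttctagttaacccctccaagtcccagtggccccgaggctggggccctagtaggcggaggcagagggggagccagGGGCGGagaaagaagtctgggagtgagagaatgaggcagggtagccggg
Pdgfra, chr14:33408517-33408766 (- strand): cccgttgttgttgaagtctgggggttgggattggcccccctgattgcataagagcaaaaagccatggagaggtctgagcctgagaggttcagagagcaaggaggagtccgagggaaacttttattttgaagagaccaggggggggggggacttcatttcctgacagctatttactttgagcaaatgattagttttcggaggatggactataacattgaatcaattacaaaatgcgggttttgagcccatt
Kdr, chr14:32571813-32572062 (+ strand): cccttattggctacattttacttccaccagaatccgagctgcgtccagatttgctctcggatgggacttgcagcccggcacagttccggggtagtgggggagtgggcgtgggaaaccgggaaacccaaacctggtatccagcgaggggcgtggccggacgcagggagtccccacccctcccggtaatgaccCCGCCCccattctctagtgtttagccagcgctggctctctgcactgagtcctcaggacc
Tie1, chr5:137304982-137305231 (- strand): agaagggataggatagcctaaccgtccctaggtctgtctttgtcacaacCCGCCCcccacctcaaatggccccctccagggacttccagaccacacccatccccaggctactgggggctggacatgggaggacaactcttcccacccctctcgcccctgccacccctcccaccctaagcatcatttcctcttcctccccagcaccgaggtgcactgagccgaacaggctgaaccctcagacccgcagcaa
The GC box, the motif of the SP1 family, occurred once in the windows of Axl, Kdr, Tie1 and Erbb2 and not in that of Pdgfra, against 33.1% of 33469 RefSeq windows of 300 bases (250 before and 50 after the start). Its first base lay 49 bases before the start of Axl, 59 before that of Kdr, 201 before that of Tie1 and 98 before that of Erbb2. The ETS core CGGAAG, searched on both strands like all of these motifs, occurred once, just after the start of Erbb2, and in 16.6% of all windows. The letters of the TATA box (TATAAA), the AP-1 motif (TGACTCA) and the GATA motif (AGATAA) were in none of the 5 windows, and in 14.2%, 4.63% and 11.6% of all. The motifs do not overlap one another in the windows shown. G and C made up 48% of the Pdgfra window, 61% of that of Kdr, 63% of that of Axl, 64.3% of that of Tie1 and 71.3% of that of Erbb2, beside a median of 51.7% over all windows. So the Pdgfra window was the only 1 of the 5 below the median and the only 1 with no match to any motif searched. Whether these windows bear on the ratios was not tested.

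Axl was the member that separated the lines. With the line in Cy3 and then in Cy5, its log2 ratio was -2.04 and -2.61 in JA, -3.09 and -3.11 in Amy, and 0.80 and 0.52 in JB. Both arrays of JA and Amy lay below 0 and both of JB above it, so the lines did not overlap. In linear terms the Axl ratio was 5.003-fold lower than the pool in JA, 8.57-fold lower in Amy and 1.58-fold higher in JB. The mean over lines, -1.59 ± 1.99 (SD, n = 3 lines), describes none of them; without JB it was -2.71. Its SD was exceeded by 4 of 3158 named genes.

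JB exceeded JA in Axl by 2.84 with the lines in Cy3 and by 3.13 in Cy5, and exceeded Amy by 3.89 and 3.64. These differences are 7.92-fold and 13.6-fold on average. A line has no biological replicate, so they have no test. JB stood at least 1 above both other lines in both dye orientations in 93 of 7180 features (1.3%), where a feature is a gene (its spots averaged) or an unnamed clone. Axl was the only 1 of the 5 receptors among them. Signs as in Axl, above 0 on both JB arrays and below 0 on the other 4, were found in 145 features (2.02%). Only 5 features, 2 of them named genes, had a larger difference between JB and the mean of JA and Amy than Axl, at 3.37. For the other members that difference was 0.20 in Tie1, 0.06 in Pdgfra, -0.01 in Kdr and -0.35 in Erbb2. Amy lay below JA in Axl, by 1.05 in Cy3 and 0.50 in Cy5.

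**Figure D1:**
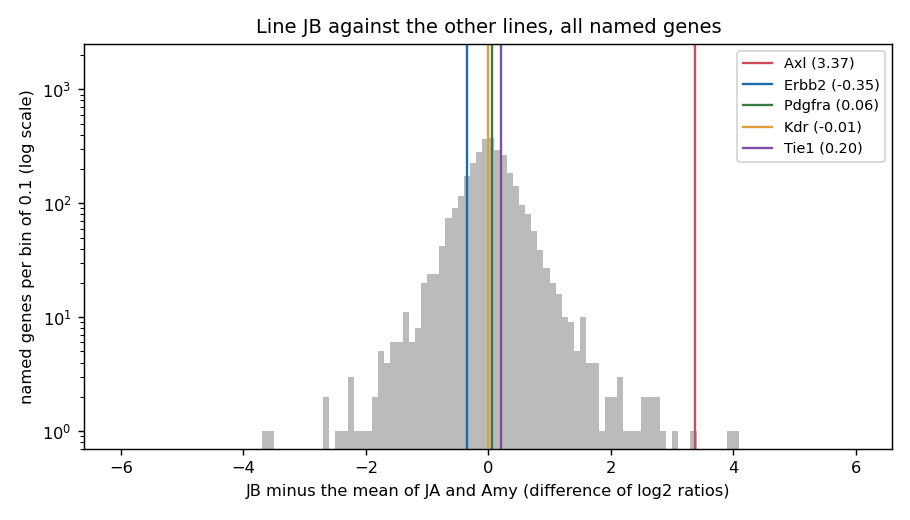
Difference between line JB and the mean of lines JA and Amy in log2 ratio (x axis) for 3158 named genes, with the number of genes per bin of 0.1 on a log scale (y axis) and a vertical line for each receptor. Axl lies at 3.37, in the far right tail, while the other receptors lie between -0.35 and 0.20.

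The named genes most like Axl over the 6 arrays were lipoprotein lipase (Lpl), the sphingosine-1-phosphate receptor S1pr4 and Fxyd5, which encodes a regulator of the sodium pump. Likeness was the root mean square difference of the log2 ratios, 0.36 for Lpl, 0.51 for S1pr4 and 0.56 for Fxyd5. In JA, JB and Amy the ratio of Lpl was -2.54, 1.21 and -3.23, that of S1pr4 -2.48, 0.29 and -2.42, and that of Fxyd5 -2.15, 0.71 and -2.59. Few genes came this close: 0.317% of the named genes lay within 1 of Axl, against 68.3% within 1 of Erbb2.

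The related TAM receptor Mertk was the other family member measured. Its log2 ratio was -1.64 in JA, -0.81 in JB and -1.78 in Amy, so JB was the highest line here too but stayed below 0. Over the lines Mertk was lower at -1.41 ± 0.52 (adjusted p = 0.00509), a call just lost without JA (adjusted p = 0.0505). The ligand Pros1 was lower as well, at -1.20 ± 0.35 (adjusted p = 0.00388), with -1.42 in JA, -1.37 in JB and -0.79 in Amy. Among the 10 protein-coding genes nearest to Axl, 1 was measured: Ccdc97 at 0.26 ± 0.30, which did not pass (adjusted p = 0.209).

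Pdgfra had the lowest mean of the 5 genes, but its clones measured very different changes. The second clone in array order read -4.53 and -4.22 in JA, -5.02 and -4.30 in JB, and -4.74 and -5.81 in Amy, each pair in the order Cy3, Cy5. Its mean was -4.77 ± 0.46 over lines, 27.3-fold lower than the pool. The first clone read -0.48 and -0.95 in JA, -0.61 and -1.15 in JB, and -1.11 and -0.82 in Amy, with a mean of -0.85 ± 0.13, or 1.81-fold lower. All 12 values were below 0 and the ranges of the clones did not overlap. The gene's mean of -2.81 ± 0.29 therefore lies where neither clone does.

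A test of clone against clone placed the first Pdgfra clone 3.91 ± 0.35 above the second (limma, adjusted p = 7.29e-04, in 3 of 3 lines). The difference itself was not used to choose the genes. It is made from the same ratios, however, so the test is not independent of that choice. Differences between the first 2 clones passed in 245 of 655 genes (37.4%), so a passing difference was common, but 16 of those 655 genes had a larger one, beside a median of 0.44. The gap was 4.03 with the lines in Cy3 and 3.802 in Cy5. Both clones are annotated to the same sequence record, and their own sequences were not used here. The duplicate spots of the second clone differed by up to 1.43 on an array and those of the first by up to 0.15.

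**Figure D2:**
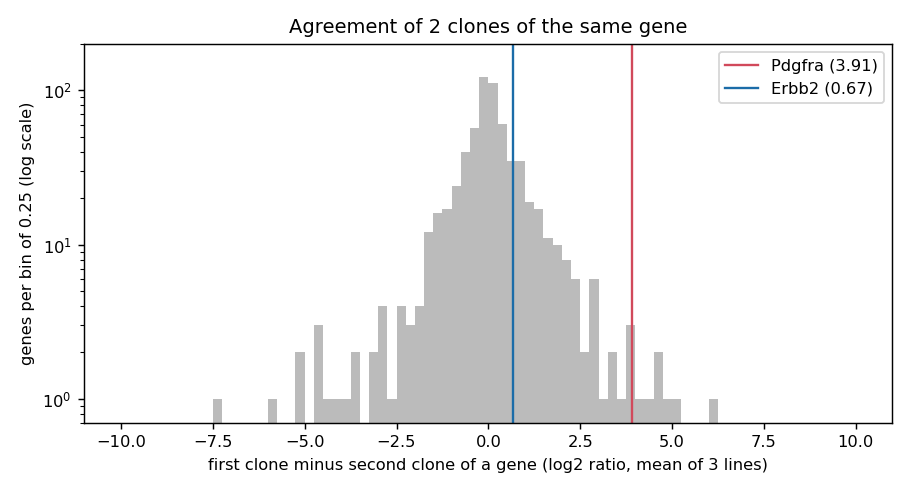
First minus second clone of a gene in log2 ratio, mean of 3 lines (x axis), for the 655 genes with several clones, with the number of genes per bin of 0.25 on a log scale (y axis). Pdgfra lies at 3.91 and Erbb2 at 0.67, beside a median size of 0.44.

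Of the family of Pdgfra, the macrophage colony-stimulating factor receptor Csf1r was measured and was lower, at -3.57 ± 0.11 (adjusted p = 6.43e-05), with -3.44 in JA, -3.61 in JB and -3.65 in Amy. Csf1r is also a leukocyte marker. Of 9 measured genes of a leukocyte list that includes Csf1r, 8 were lower and 1 was higher. Over all features, 32.8% were lower and 20.7% higher. The higher gene was Tyrobp at 0.67 ± 0.14 (limma, adjusted p = 0.00807). Cd53, counted as lower, lay above 0 in every line in Cy3 and below 0 in Cy5. The list's medians were -3.44 in JA, -3.44 in JB and -3.65 in Amy. Those of JA and Amy are the values of Csf1r itself. The part of leukocyte RNA was not tested. The ligand Pdgfa stood at 0.25 ± 0.15 and did not pass (adjusted p = 0.137), its clones at -0.25 and 0.76. Nearest to the mean of the Pdgfra clones were elastin (Eln) at -3.02 ± 0.30, Gramd1c at -2.88 ± 0.12 and the actin-severing protein cofilin 2 (Cfl2) at -2.68 ± 0.30. Their root mean square differences from it were 0.25, 0.29 and 0.30. Neither clone lies near that mean, so this likeness describes neither clone. Pdgfra marks mesenchyme, and of 15 measured genes of a fibroblast and mesenchyme list 13 were lower, Eln among them, and 1 was higher. The list's medians were -3.52 in JA, -3.74 in JB and -3.52 in Amy. The part of such cells in the pool's Pdgfra RNA was not tested.

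Kdr was lower in every line and on every array. It read -2.18 and -2.05 in JA, -2.66 and -2.13 in JB, and -2.56 and -2.74 in Amy. JB overlapped both other lines while Amy lay below JA, and the line means differed by at most 0.53. The mean of -2.39 ± 0.27 is 5.24-fold lower than the pool, and 4.21% of named genes had a lower mean. The closest named genes were the glycosyltransferase Galnt7, the secreted Fstl1 and the collagen Col14a1, with means of -2.30, -2.30 and -2.15 and root mean square differences of 0.29 to 0.30.

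The ligands of the VEGF receptor family moved in opposite directions. Vegfa, the main ligand of Kdr, was 3.16-fold higher in the tumor lines at 1.66 ± 0.15 (adjusted p = 6.44e-04), with 1.82 in JA, 1.52 in JB and 1.65 in Amy. Placental growth factor (Pgf), a ligand of the relative Flt1, was lower at -1.45 ± 0.62 (adjusted p = 0.00681). Its 6 arrays did not share a sign: JA stood at 0.20 in Cy5, and the call was lost with the Cy5 orientation alone (adjusted p = 0.117) and without the JA array in Cy3 (0.0924). The coreceptor neuropilin 1 (Nrp1) was lower at -1.43 ± 0.09 (adjusted p = 8.20e-04), its clones at -1.79 and -1.07.

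Tie1 fell least of the 3 genes that were below 0 on all arrays. It read -1.14 and -1.35 in JA, -0.79 and -1.26 in JB, and -1.15 and -1.26 in Amy, and its mean of -1.16 ± 0.12 is 2.23-fold lower than the pool. The lines overlapped and their means differed by at most 0.22, and 80.8% of named genes had a larger SD over lines. Nearest in ratio were the phosphatase Dusp26 at -1.20, the carnitine palmitoyltransferase Cpt1b at -1.07 and Efcab2 at -1.11, at root mean square differences of 0.12 to 0.15, and 35.1% of named genes lay within 1 of Tie1. The angiopoietin Angpt4 was lower at -0.73 ± 0.22 (adjusted p = 0.00899), a call lost without JA (adjusted p = 0.0673) or Amy (0.0548). Near Tie1 on the chromosome, the mitotic gene Cdc20 was higher at 2.71 ± 0.24 (adjusted p = 2.19e-04), while Ebna1bp2 at 0.25 ± 0.37 did not pass (adjusted p = 0.263).

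Kdr and Tie1 are genes of endothelial cells, so other endothelial markers were set beside them. Of 25 listed, 3 were measured and all 3 were lower, as were 32.8% of all features. They were the transcription factor Sox18 at -3.37 ± 0.17 (adjusted p = 9.03e-05), endomucin (Emcn) at -1.53 ± 0.12 (adjusted p = 7.43e-04) and Sox17 at -0.51 ± 0.10 (adjusted p = 0.0169). Emcn varied with the dye, at -0.54 in Cy3 and -2.79 in Cy5 in JA, -0.89 and -2.11 in JB, and -1.08 and -1.76 in Amy. Its clones stood at -1.97 and -1.08. With 3 genes the list's median was the value of Emcn in each line, -1.66 in JA, -1.50 in JB and -1.42 in Amy. The defining markers Pecam1, Cdh5 and Tek were not among the named genes measured, and the part of endothelial RNA in the pool was not tested. Few epithelial markers were measured either, 8 of 41, with 1 higher, 4 lower and a median of -0.23. Over all features 20.7% were higher and 32.8% lower. The ratios therefore do not show whether the lines or the pool are epithelial.

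The receptors below 0 in all lines stood beside a background in which 33.4% of features lay below 0 on all 6 arrays. Ratios below -1 on all 6 arrays, reached by Kdr and by the mean of the Pdgfra clones, were found in 8.12% of features. The first Pdgfra clone alone did not reach them. The order of means from low to high was Pdgfra, Kdr, Axl, Tie1 and Erbb2. Pdgfra and Kdr are neighbors in that order whose line means overlapped, and the line means of Axl reached below and above the means of all the other genes. Tie1 and Erbb2 did not overlap. The first clone of Pdgfra alone would place that gene between Tie1 and Erbb2.

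**Figure D3:**
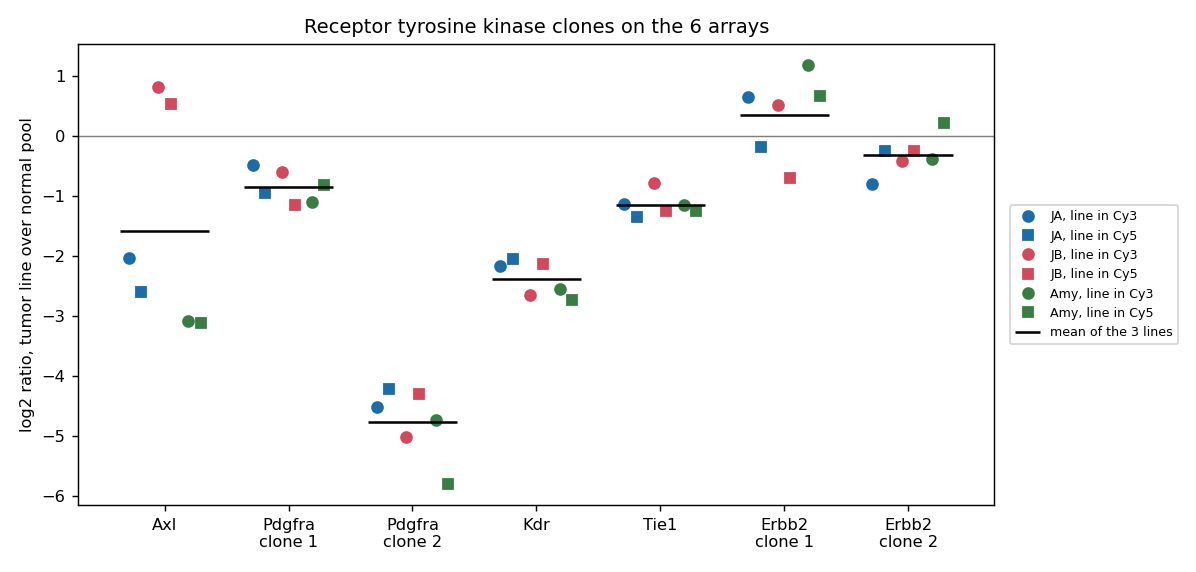
Log2 ratio of tumor line over normal pool (y axis) for the 7 clones of the 5 receptors (x axis), with 1 point per array, colored by line and shaped by the dye of the line, and a bar at the mean of the 3 lines. Only JB lies above 0 for Axl, and the clones of Pdgfra are centered at -0.85 and -4.77.

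Erbb2 had a mean near 0, and its SD over lines was exceeded by 28.7% of named genes. Its gene values were -0.08 and -0.22 in JA, 0.04 and -0.48 in JB, and 0.39 and 0.44 in Amy. Amy was the highest line in both orientations, while JA and JB overlapped. The mean of 0.01 ± 0.35 over lines lies among the middle of named genes, 53.7% of which had a lower mean. Amy at 0.41 corresponds to a ratio 1.33-fold higher than the pool, which exceeded JA by 0.56 and JB by 0.64.

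The mean of Erbb2 combined clones whose values changed in opposite directions between the dye orientations. The first clone read 0.64 and -0.19 in JA, 0.50 and -0.70 in JB, and 1.18 and 0.67 in Amy, falling from Cy3 to Cy5 by 0.85 on average. The second read -0.80 and -0.25 in JA, -0.41 and -0.26 in JB, and -0.40 and 0.21 in Amy, so Cy5 exceeded Cy3 in every line, by 0.43 on average. The first clone therefore stood 1.31 ± 0.35 above the second with the lines in Cy3, and 0.03 ± 0.45 above it in Cy5. Averaged over the dyes the gap was 0.67 ± 0.39, which did not pass (limma, adjusted p = 0.0595) but passed without JB (0.0398). The dye pattern of single clones was seen in the values and has no test of its own.

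The dye test on whole genes asked whether the ratio changed between line in Cy3 and line in Cy5, a difference not used to choose them. It passed in 36 of 7180 features (0.501%, limma), and none of the 5 genes was among them. After quantile normalization 408 features passed, and without JA, JB or Amy 0 did, where 1399, 1580 and 2323 had an unadjusted p under 0.05. In the test on all lines an unadjusted p under 0.05 was reached by 2533 features, and the lowest of the 5 was 0.0827 for Tie1. Line in Cy5 minus line in Cy3 was -0.29 ± 0.27 in Axl, -0.26 ± 0.18 in Tie1, -0.21 ± 0.29 in Erbb2, -0.13 ± 0.24 in Pdgfra and 0.16 ± 0.35 in Kdr. The Erbb2 value averages its first clone at -0.85 and its second at 0.43, which partly cancel. The adjusted p lay between 0.188 and 0.533, with Axl at 0.216.

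Erbb2 signals with other ERBB receptors and lies in a segment often amplified in human tumors. Its partner Erbb3 stood at 0.39 ± 0.29, with 0.09 in JA, 0.65 in JB and 0.44 in Amy, and did not pass (adjusted p = 0.0784); with each array centered on its median it did, at 0.52 (0.0332). The ligand epidermal growth factor (Egf) was lower at -3.16 ± 0.24 (adjusted p = 1.41e-04), 8.93-fold below the pool. Of 17 genes listed for that segment 7 were measured, of which Med1, a subunit of the Mediator complex, was higher at 0.79 ± 0.23 (adjusted p = 0.00712), Stard3, a cholesterol-binding protein, was lower at -0.76 ± 0.22 (adjusted p = 0.0078) and 5 did not pass. Stard3, 4 genes away from Erbb2, and Med1 both lost the call without JA (adjusted p = 0.0582 and 0.0540). Without JA their means were -0.755 and 0.80. The median of the 7 was -0.06, beside -0.12 over all features. Of all features 20.7% passed as higher and 32.8% as lower.

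The next comparison asked how other genes of these pathways differed between the 3 lines and the pool. Of all 7180 features 3843 passed (53.5%), 1487 higher (20.7%) and 2356 lower (32.8%), so shares of lists are read against these. The median of all features was -0.12, and centering each array would raise every ratio by about that much and give 1844 higher and 1981 lower. Of 11 other receptor tyrosine kinases measured 1 was higher, 5 were lower and the other 5 missed the threshold. Their median was -0.33. Beyond Csf1r and Mertk, the ephrin receptor Epha5 was lower at -0.62 ± 0.13 (adjusted p = 0.00995), and Ryk, a receptor for Wnt proteins, was higher at 0.60 ± 0.35 (adjusted p = 0.0318). Both calls were lost in some fits on fewer lines or arrays. Epha5 lost the call without JA (adjusted p = 0.0553) or Amy (0.0568). Ryk lost it without JA (0.132), without Amy (0.101), in the Cy3 orientation alone (0.0819), without the JA array in Cy3 (0.0518) and without the JB array in Cy5 (0.0761). The means of Epha5 and Ryk were -0.66 and 0.41 without JA, and -0.55 and 0.64 without Amy. The receptor count that passed fell from 6 to 1 without JA and to 2 without Amy. Over all features the count fell from 3843 to 2076 without JA and to 2701 without Amy. Losses in every list are read against that.

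Of 7 ligands and coreceptors of the 5 receptors' families 1 was higher, Vegfa, 5 were lower and Pdgfa missed the threshold. The median was -1.20. Of 7 other growth factors 1 was higher and 5 were lower, with a median of -1.82. The heparin-binding midkine (Mdk) stood at -6.82 ± 0.34 (adjusted p = 4.34e-05), Igf2 at -3.40 ± 0.39 (adjusted p = 2.41e-04), Igf1 at -2.60 ± 0.07 (adjusted p = 1.38e-04) and pleiotrophin (Ptn), a relative of midkine, at -1.82 ± 0.98 (adjusted p = 0.0118). The call of Ptn was lost without JA (adjusted p = 0.0805), where its mean was -1.83, and the count of this list fell from 6 to 3.

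Among 23 adaptors and effectors 7 were higher, 8 were lower and the other 8 missed the threshold, around a median of -0.08. Map2k1, a kinase that activates the MAP kinases Erk1 and Erk2, was 2.995-fold higher at 1.58 ± 0.27 (adjusted p = 0.00122), with 1.89 in JA, 1.38 in JB and 1.48 in Amy. The adaptor Nck1 was lower at -1.37 ± 0.10 (adjusted p = 9.56e-04) and Pik3r1, the regulatory subunit of PI3 kinase, at -1.22 ± 0.23 (adjusted p = 0.00207). The transcription factor Stat3 was lower at -2.89 ± 2.20 (adjusted p = 0.0309) and separated the lines the other way from Axl, with -2.49 in JA, -5.26 in JB and -0.91 in Amy. Its call was lost without JA (adjusted p = 0.127), where its mean was -3.08, and the list's count fell from 15 to 6.

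Of 9 negative regulators 2 were higher, 4 were lower and the other 3 missed the threshold, around a median of -0.07. Csk, the kinase that holds Src family kinases inactive, was lower at -2.70 ± 0.72 (adjusted p = 0.00168), and the MAP kinase phosphatase Dusp1 at -2.03 ± 0.50 (adjusted p = 0.00169). The adaptor Grb10 was lower at -1.85 ± 0.31 (adjusted p = 9.48e-04) and the ERK phosphatase Dusp6 at -0.61 ± 0.18 (adjusted p = 0.0132). The call of Dusp6 was lost without JA (adjusted p = 0.0684), in the Cy5 orientation alone (0.164) and without the JA array in Cy3 (0.120), and the list's count fell from 6 to 3 without JA.

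Early response genes, which growth factor signaling induces, had the highest median of these lists, 0.68: 6 of 11 were higher, 1 was lower and 4 did not pass. Ier3 was 4.20-fold higher at 2.07 ± 0.03 (adjusted p = 2.47e-04), the cell cycle regulator Ccnd1 reached 1.39 ± 0.10 (adjusted p = 9.07e-04) and Ier5 at 1.08 ± 0.41 (adjusted p = 0.0068). The survival protein Mcl1 was the 1 lower gene, at -0.90 ± 0.05 (adjusted p = 0.00272). Which receptor, if any, these genes followed was not tested.

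Besides Axl, 3 of the 75 pathway genes stood at least 1 apart from both other lines in JB in both orientations. Stat3 and Csk were lower in JB, as 0.696% of features were by that measure, Csk at -3.52 against -2.39 in JA and -2.20 in Amy. Stat5a, named after its values were seen, was higher in JB, as 1.3% of features were by the same measure. It stood at 0.28 in JB, against -1.50 in JA and -1.12 in Amy, the same order of JB against the others as in Axl.

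**Figure D4:**
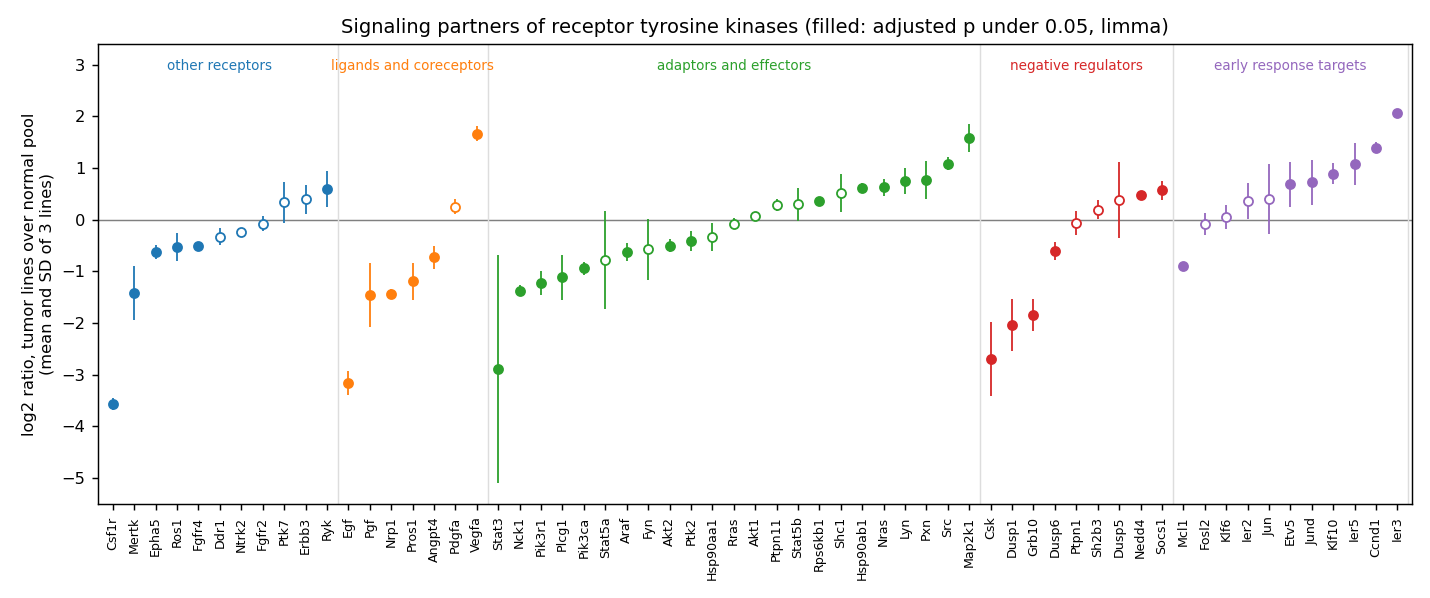
Mean log2 ratio of tumor lines over normal pool (y axis, bars are the SD of 3 lines) for measured genes of 5 lists (x axis, sorted within a list). Filled points passed at an adjusted p under 0.05 in limma; Vegfa stands at 1.66 above an otherwise mostly negative ligand list, and Ier3 at 2.07 leads the early response genes.

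The test of the lines against the pool takes the pool as 1 sample without a spread of its own. When the pool was given a spread, that of 2 lines averaged, 1970 features passed, and of the 75 pathway genes 24 in place of 48. Without JA 2076 features and 23 pathway genes passed. The labels do not say that the lines came from separate animals, so the p-values cover only how these 3 lines spread.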

How the data were processed

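Two-color cDNA arrays compared 3 tumor lines with 1 normal pool, 2 dye-swapped arrays per line. The values are the deposited log2 ratios, 1 per spot; scanner, background correction, normalization and filters are not given in the sources used here. Arrays of a pair correlated at 0.815 to 0.888 across features without a change of sign, so the deposited ratios already run in 1 direction. The platform annotation gave 1 symbol for 8084 of 16128 spots, several for 40 and none for 8004. Identifiers of 8076 spots matched RefSeq (GRCr8). Spots were averaged into 3158 genes and 4022 unnamed clones, and arrays into lines.

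Limma 3.58.1 in R 4.3.3 (lmFit and eBayes, intercept only, two-sided) tested the lines against 0, the dye difference and the difference of 2 clones, with Benjamini-Hochberg adjustment over 7180, 7180 and 655 features and a threshold of 0.05. It was tested on simulated data. The number of arrays limits the precision. Same-numbered arrays share the dye orientation per the labels, and orientation differences correlated between lines at 0.526 to 0.613, so the numbers pair the arrays. The genes, lists and motifs were chosen with earlier results of these data known. Genes named were all members, the 3 most like each, up to 4 called per list with 1 sign on all 6 arrays and the largest mean, and measured family members and ligands; chromosomal neighbors were added later. Alternatives were array centering, quantile normalization, single orientations, lines or arrays left out, a replicate block, a spread for the pool and single clones. Protein motifs were not searched. Figures used matplotlib 3.10.9 in Python 3.11.15.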

Additional observations from a re-analysis of the deposited data

Results flagged for a closer look

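Axl was marked because its lines moved in opposite directions: both arrays of JA and Amy lay below 0, down to a line mean of -3.10 in Amy, and both arrays of JB lay above 0. The difference between lines was not tested, since a line has no biological replicate.

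Erbb2 was marked for the same reason at a smaller size, with both arrays of Amy above 0 at a line mean of 0.41 and both arrays of JA below 0 at -0.15. That difference was not tested either. Amy exceeded JA in both clones and both orientations, by 0.69 on average in the first and 0.43 in the second. Neither clone alone placed the line means of JA and Amy on opposite sides of 0. Those of the first clone lay above 0, at 0.23 in JA and 0.92 in Amy. Those of the second lay below 0, at -0.53 in JA and -0.09 in Amy.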

How the results depend on the processing

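The mean ratios of Axl, Erbb2, Pdgfra and Kdr stayed within 1 SD of the lines under array centering, quantile normalization and either dye orientation. That margin is wide for Axl, whose SD was 1.99. Erbb2 changed sign within it, at 0.12 in Cy3 and -0.09 in Cy5. The replicate block cannot move a mean in this balanced design. Tie1, with its small SD, moved to -1.03 with centered arrays and to -1.03 and -1.29 in the Cy3 and Cy5 orientations alone. Single clones of Pdgfra gave -0.85 and -4.77. Leaving out a line or an array moved Axl between -2.71 (without JB) and -0.83 (without Amy), Erbb2 between -0.18 and 0.13, Pdgfra between -2.94 and -2.66, Kdr between -2.52 and -2.26 and Tie1 between -1.24 and -1.08. With the replicate block 3913 features and 48 pathway genes passed, against 3843 and 48. The range over left-out lines and arrays was 2076 to 3716 features and 23 to 50 pathway genes, lowest without JA, and with a spread for the pool 1970 and 24 passed. Centering split the passing features into 1844 higher and 1981 lower, against 1487 and 2356. The dye test passed in 29 features with centered arrays, 408 after quantile normalization and, in limma, 0 without any 1 line, where 1399 to 2323 features had an unadjusted p under 0.05. Its sign turned for Pdgfra (0.086 after quantile normalization, and -0.23 to 0.0051 with a line left out) and Kdr (-0.030 to 0.32 with a line left out), which had not passed. Clone differences passed in 166 to 181 genes without a line. The causes were not tested. No filter on dim spots was possible without intensities, which limits the reading of the largest ratios.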
